A study of Mus musculus with 6 samples.

Results

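Microglia are the resident macrophages of the brain, and the genes described here are 9 that mark them or carry out their work: Cx3cr1, P2ry12, Tmem119, Csf1r, Trem2, Tyrobp, Aif1, Itgam and Cd68. They were taken by gene symbol from the count and FPKM tables of a study of the lateral septum (LS) in olanzapine-treated mice. All 9 were found among the 35415 genes of the files, and all 9 were among the 17255 genes that passed the count filter and were tested. Female WT C57BL/6 mice, about 8 weeks old on arrival, received control chow or chow with olanzapine, a second-generation antipsychotic, at 50 mg per kg of feed for 12 weeks. Each library was made from the LS tissue of 3 pooled mice, with 3 libraries per group. Single mice were therefore not measured, and a difference between the diets is read against the spread between pools. The total count per library lay between 38208153 and 39868872, and each of the 9 genes had at least 107 counts in every library. Among listed LS genes, Sst and Gad2 were the most abundant, but neurons of other forebrain regions express both, so their level does not identify the LS. Zic1, a transcription factor of septal neurons that is named after its values were seen, had 52.7 to 67.1 FPKM in controls and 31.6 to 51.4 with olanzapine, without overlap.

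Microglia watch their surroundings through surface receptors. CX3CR1 binds fractalkine from neurons, P2RY12 senses ADP released by stressed cells, and CSF1R receives the growth factors CSF1 and IL-34, on which microglia depend to stay alive. TREM2 recognises lipids and lipoproteins and passes its signal on through TYROBP, an adaptor that also serves other myeloid receptors, while ITGAM pairs with ITGB2 to form complement receptor 3. Resting microglia are known for high Cx3cr1, P2ry12 and Tmem119, and activated ones for lower levels of these and more of genes such as Cd68, a protein of lysosomes, and Aif1, the actin-binding protein known as IBA1.

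None of the 9 genes passed the test between the diets, and the fitted fold changes (olanzapine over control) ran from 0.860 in Itgam to 1.32 in Aif1. A gene was called when its Benjamini-Hochberg adjusted p over all tested genes was under 0.05 in edgeR. By this rule 0 of the 9 were called, against 2.32% of all tested genes (1.83% higher and 0.493% lower with olanzapine), and 0 of 9 against 1.01% when the fold also had to be above 2 or below 0.5. DESeq2 also called 0 of the 9, against 6.69% of all genes, as did limma on log2(FPKM + 1), against 1.94% with a filter and 0.922% without, and on log2(FPKM + 0.1), against 1.95%. At an unadjusted p under 0.05 there were 2 of 9, Cx3cr1 and Itgam, both lower, against 17.6% of all genes (9.19% higher and 8.4% lower). The fitted change was above 0 in 7 of 9 genes, against 50.7% of all genes, but in 4 of 9 without control pool 3 and 5 of 9 without olanzapine pool 3. It was beyond 0.25 in size on the log2 scale in 1 of 9, against 34.9%. The median log2 fold change of the 9 was 0.08, and that of all tested genes was 0.00389. Without control pool 3 the median of the 9 was -0.00338, and without olanzapine pool 3 it was 5.7e-05.

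The 95% interval of the fold change reached 2-fold for 0 of the 9 genes, and it reached 1.5-fold for 1 of them, Aif1, with an interval from 0.977 to 1.77. For Csf1r the interval ran from 0.891 to 1.16 and for P2ry12 from 0.865 to 1.19. These are bounds on RNA per library: in bulk tissue, fewer microglia and less RNA in each microglial cell cannot be told apart.

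**Figure D1:**
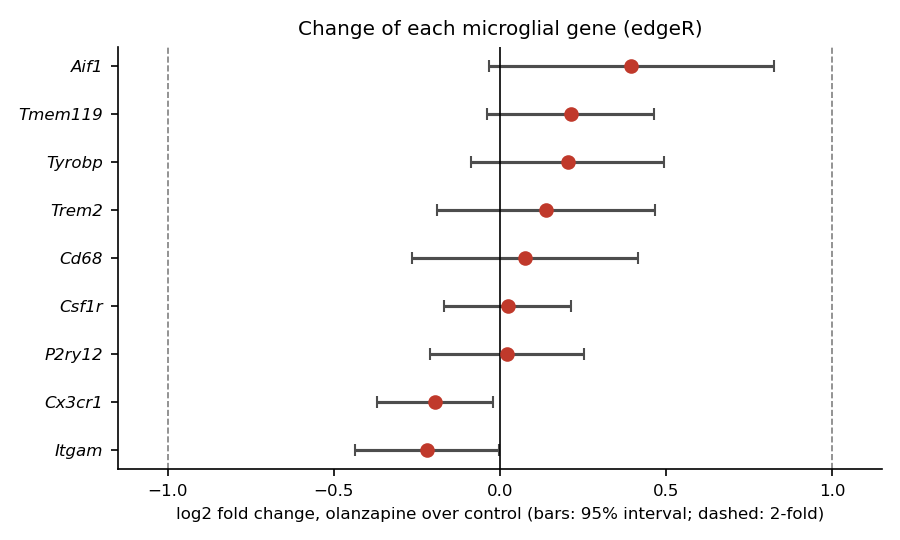
Log2 fold change of each of the 9 microglial genes, olanzapine over control (n = 3 pools per group), on the horizontal axis, as points with 95% intervals from edgeR. All intervals lie inside the dashed lines at 2-fold, and those of Cx3cr1 and Itgam lie just below 0.

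In RefSeq on GRCm38.p6 the genes lie apart: Cx3cr1 at chr9:120048683-120068296, P2ry12 at chr3:59216271-59262985, Tmem119 at chr5:113793729-113800396, Trem2 at chr17:48346401-48352276, Tyrobp at chr7:30413782-30417582, Aif1 at chr17:35170986-35176083, Itgam at chr7:128062640-128118491 and Cd68 at chr11:69664213-69666170. All are protein-coding, as is Csf1r, whose coordinates are not printed here. P2ry12 overlaps Med12l on the opposite strand, Cx3cr1 overlaps Gm33858, and Csf1r overlaps Gm52352 and Mir6983, of which the files count neither. In the GENCODE annotation the model of Cx3cr1 spans 168264 bases and overlaps 9 genes, Gorasp1, Csrnp1 and Xirp1 on the same strand, with 78 exonic bases shared in all. There Csf1r also overlaps Hmgxb3, and Itgam shares 3450 exonic bases with Gm49368 on the same strand. The strand setting of the counting was not given in the sources used here. It is therefore not known whether reads of pairs on opposite strands were told apart. Gm33858 itself had at most 10 counts in any library. For pairs on the same strand this setting has no bearing. The gene models behind the counts need not be those of GENCODE: the length used for Trem2 was 1146 bases, against 4946 exonic bases in GENCODE.

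PU.1, the product of Spi1, is a transcription factor that myeloid genes share, and its DNA sites are built around GAGGAA. In RefSeq's table of GRCm38 promoters, which matched 6 of the 9 genes, GAGGAA occurred on either strand in the 250 bases before the start of 4 (Itgam, Aif1, Trem2 and Cd68), against 23.3% of all 32851 promoters. The longer GAGGAAGT, which contains it, occurred in 0 of the 6, against 2.44%. The table's start site for Aif1 lies 31 bases inside the span of the gene, so its match, near that site, is in the gene and its stretch is not printed. Shown here are the last 100 bases before the start site of 3 genes, 5′ to 3′ on the strand of the gene: Itgam and Cx3cr1, whose olanzapine pools all lay below the controls, one with a match and one without, and Trem2, with a match and a fitted change on the other side of 0. Capitals mark GAGGAA or, for the opposite strand, TTCCTC. The stretches are chr7:128062540-128062639 (plus strand) for Itgam, chr17:48346301-48346400 (plus) for Trem2 and chr9:120068297-120068396 (minus) for Cx3cr1.
Itgam: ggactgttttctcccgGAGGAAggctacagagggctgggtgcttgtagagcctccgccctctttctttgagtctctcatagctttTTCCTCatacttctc
Trem2: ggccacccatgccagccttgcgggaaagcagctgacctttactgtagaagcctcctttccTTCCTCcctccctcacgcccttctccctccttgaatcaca
Cx3cr1: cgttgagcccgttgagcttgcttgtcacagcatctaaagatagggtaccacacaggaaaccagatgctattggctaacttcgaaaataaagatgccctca

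The match nearest to the start began 15 bases before it in Itgam and 40 in Trem2, and Itgam had another 84 bases before. In Cx3cr1 and P2ry12 these letters are not in the window of 250 bases.

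Cx3cr1, the fractalkine receptor, had 1968, 2051 and 2003 normalised counts in controls 1 to 3, and olanzapine pools 1 to 3 had 1727, 1640 and 1895. Every olanzapine pool lay below every control pool. The mean went from 2008 ± 41.7 to 1754 ± 129 (SD, n = 3 pools each), or -0.19 ± 0.08 (SE) as a log2 fold change, and the edgeR adjusted p of 0.233 was not a call.

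Itgam, the alpha chain of complement receptor 3, had the same order. Controls had 803, 830 and 852 normalised counts, and olanzapine pools 659, 705 and 772, again with no overlap. The means were 829 ± 24.7 and 712 ± 56.6 (SD, n = 3 each), and the log2 fold change was -0.22 ± 0.09 (SE; edgeR adjusted p = 0.281).

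Aif1, the gene of IBA1, lay on the other side and had the lowest counts of the 9. Controls had 107, 124 and 127 normalised counts, and olanzapine pools 178, 142 and 151, so all olanzapine pools were above all controls. The means were 119 ± 10.9 and 157 ± 18.8 (SD, n = 3 each), and the log2 fold change was 0.40 ± 0.19 (SE; edgeR adjusted p = 0.320). Tyrobp, the adaptor of TREM2, was separated as well, with 479, 507 and 476 normalised counts in controls and 522, 512 and 649 with olanzapine. Olanzapine pools 1 and 2 were only just above the highest control, and pool 3 stood well above the rest. The log2 fold change of Tyrobp was 0.20 ± 0.13 (SE; edgeR adjusted p = 0.447), and without olanzapine pool 3 it was 0.08.

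Groups without overlap were thus seen in 4 of the 9 genes, 2 above and 2 below, against 24.3% of all tested genes in either direction, 13.3% above and 11% below. The 4 genes did not share a direction.

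**Figure D2:**
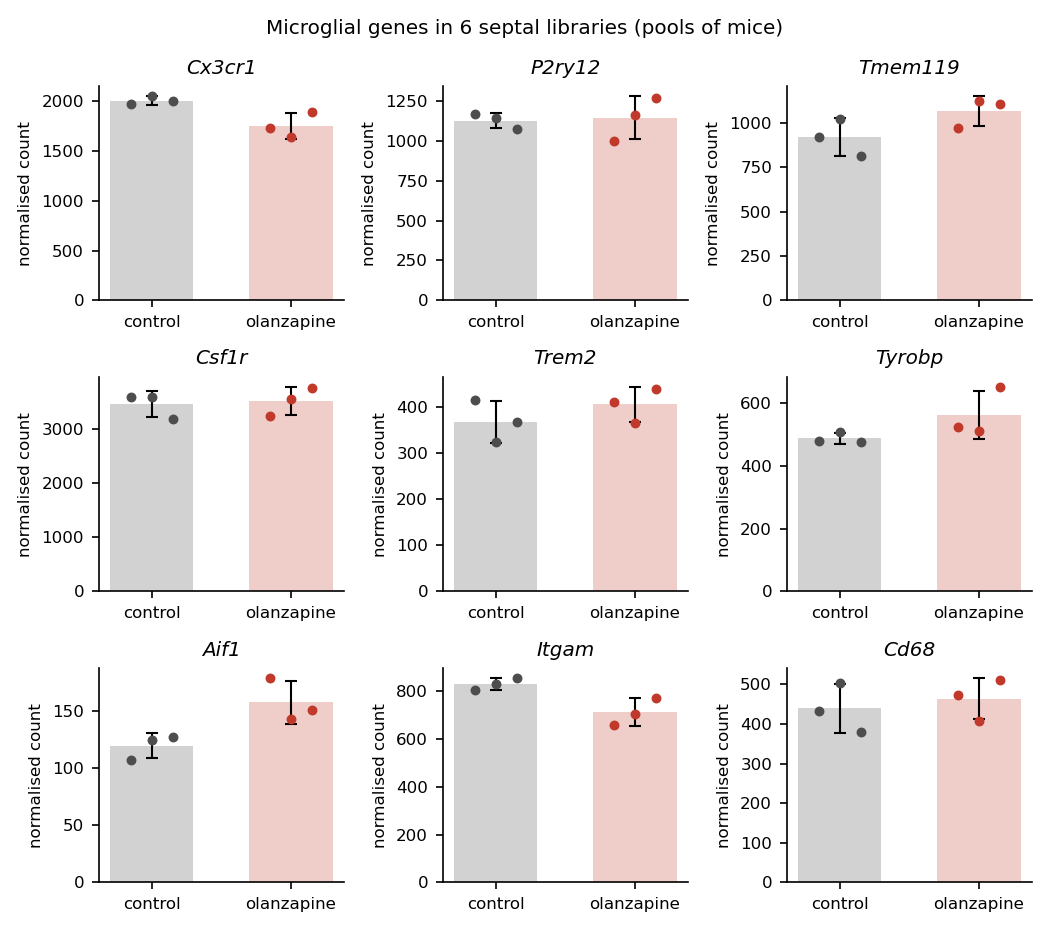
Normalised counts (vertical axes, starting at 0) of the 9 microglial genes in the control and olanzapine libraries, with points for the 3 pools of each group, bars for the mean and whiskers for the SD. In Cx3cr1 and Itgam the 3 olanzapine points lie below the control points, in Aif1 and Tyrobp above them, and in the other 5 genes the groups overlap.

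The remaining genes overlapped between the diets. Tmem119, a membrane protein used to tell microglia from other macrophages, had 922, 1026 and 815 normalised counts in controls and 972, 1126 and 1106 with olanzapine. Its lowest olanzapine pool fell between the control values, and the log2 fold change was 0.21 ± 0.11 (SE; edgeR adjusted p = 0.355). P2ry12, the ADP receptor, had 1165, 1140 and 1075 in controls and 1001, 1162 and 1269 with olanzapine. Both the lowest and the highest P2ry12 value were in olanzapine pools, and the log2 fold change was 0.02 ± 0.10 (SE). Csf1r, the receptor that microglia need for survival, had 3597, 3588 and 3189 in controls and 3245, 3558 and 3746 with olanzapine. The order of its pools was mixed, and its log2 fold change was 0.02 ± 0.08 (SE; edgeR adjusted p = 0.912).

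Trem2, the lipid-sensing receptor, had 414, 323 and 367 normalised counts in controls and 410, 365 and 439 with olanzapine. Cd68 had 434, 504 and 381 in controls and 472, 408 and 511 with olanzapine. The control pools alone spread further apart than the means of the diets in both, and the log2 fold changes were 0.14 ± 0.14 and 0.08 ± 0.15 (SE).

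Levels can be set side by side only per length, so FPKM was used for the order of the genes. Tyrobp (23.3 ± 2.95 FPKM, SD over the 6 libraries) and Csf1r (23.0 ± 1.59) were highest, and Tyrobp was above Csf1r in 3 of 6 libraries, so their order is not fixed. Every library had Csf1r above Cx3cr1, which was next at 12.8 ± 1.00 FPKM. Tmem119 (11.2), P2ry12 (10.8), Cd68 (9.26) and Trem2 (8.63) followed, and from Cx3cr1 to Trem2 each gene's range over the libraries overlapped that of the next. Itgam (4.21 ± 0.40) and Aif1 (3.44 ± 0.62) were lowest, below Trem2 in all 6 libraries. Itgam was above Aif1 in 5 of 6 libraries, and in olanzapine pool 1, where Aif1 had 4.38 FPKM and Itgam 3.56, the order turned.

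The spread between pools also differed among the genes. In the control group the coefficient of variation ran from 2.08% in Cx3cr1 to 14.1% in Cd68. A Poisson count of the depth of Cx3cr1 gives 2.22%, and for Itgam the observed and Poisson values were 2.98% and 3.46%. Among the olanzapine pools the coefficient was 7.38% in Cx3cr1, 7.95% in Itgam and 13.7% in Tyrobp, and it was larger than in the controls in 6 of the 9 genes. The highest value was in olanzapine pool 3 for 5 of the 9 genes (P2ry12, Csf1r, Trem2, Tyrobp and Cd68), and the lowest was in control pool 3 for 4. Summed over the 9 genes, the CPM was 253, 258 and 238 in controls and 235, 246 and 270 with olanzapine, so the summed level overlapped.

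The list of 8 ligands and signals to microglia held Cx3cl1, Csf1, Il34, Apoe and Clu, which act on receptors among the 9, and Tgfb1, Tgfb2 and Cd200, which act on others. In edgeR 0 were called, against 2.32% of all tested genes. At an unadjusted p under 0.05 there was 1, Cd200, against 17.6%. Cx3cl1, which encodes fractalkine, had a mean of 21593 ± 2015 normalised counts in controls and 24534 ± 4214 with olanzapine (SD, n = 3 each; edgeR adjusted p = 0.508). In FPKM, Cx3cl1 was 12.7, 13.9 and 11.9 times Cx3cr1 in controls and 20.3, 15.9 and 14.1 times with olanzapine. This ratio did not overlap, with the lowest olanzapine pool just above the highest control. Cx3cr1, its denominator, did not overlap by itself either. Of all tested genes taken singly 24.3% did not overlap, and no such share was computed for ratios. Olanzapine pool 1 had the highest Cx3cl1, 29393 normalised counts against 21874 and 22335 in the other olanzapine pools, and without it the log2 fold change of Cx3cl1 went from 0.18 to 0.03. Csf1 had a log2 fold change of -0.16 and Il34, the other ligand of CSF1R, of 0.37, with an edgeR adjusted p of 0.363 for each. Il34 also rested on olanzapine pool 1, with 1591 normalised counts against 1093 and 958 in the others, and had 0.12 without it. Leaving out single libraries for these ligands was chosen after seeing the data. The FPKM ratio of Csf1r to Csf1 was 3.74 to 4.35 in controls and 4.51 to 5.01 with olanzapine, also without overlap. Csf1 itself, like Cd200, had every olanzapine pool below every control. The ratio of Csf1r to Il34 was 2.35 to 3.11 in controls and 1.45 to 2.78 with olanzapine. Apoe and Clu, lipoprotein ligands of TREM2, were the most abundant of the list, and Apoe had 1002 FPKM in controls and 1008 with olanzapine. The FPKM ratio of Tyrobp to Trem2 lay between 2.31 and 3.13 in controls and between 2.54 and 2.95 with olanzapine. For Itgam and Itgb2, the chains of complement receptor 3, it was 2.10 to 2.25 and 1.95 to 2.62.

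Around these genes, 111 further genes of microglial biology were listed in 7 groups, and 101 of them passed the count filter. In edgeR 0 were called, against 2.32% of all tested genes, and 11 (10.9%) had an unadjusted p under 0.05, against 17.6%. The groups did not overlap in 15 (14.9%), 8 above and 7 below, against 24.3%. Without the count filter, 0 of all 111 were called. The median log2 fold change was -0.03, with 46 above 0 and 55 below. The cell source of these RNAs was not tested, and bulk tissue does not show it. As means over the libraries, Fth1 had 3372 FPKM, Apoe 1005 and Ctsd 255, against 23.3 for Tyrobp. Within the TREM2-TYROBP signalling list, Prkcd had 31.0 FPKM and Syk 0.33. The list names stand for roles in microglial biology, and the medians of the lists need not be measures of microglia alone.

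The 31 genes of resting microglia ranged from -0.71 to 0.29 on the log2 fold change scale, with a median of 0.01. Ctss, a lysosomal protease with high levels in microglia, had a mean of 3010 ± 78.8 normalised counts in controls and 3028 ± 247 with olanzapine (SD, n = 3 each), and a log2 fold change of 0.01. C1qa, a complement gene that microglia supply to the brain, had 0.27 (edgeR adjusted p = 0.161), and its partners C1qb and C1qc had 0.29 and 0.11. Sall1, a transcription factor that keeps microglial identity, had -0.26 (edgeR adjusted p = 0.114). Among the genes without overlap, C1qa, C1qb, Fcrls and Ly86 were above and Sall1 and Pros1 below. C1qb, C1qc, Sall1, Fcrls, Ly86 and Pros1 are named here after their values were seen.

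The 9 myeloid transcription factors had a median of 0.09, and 0 had an unadjusted p under 0.05. Spi1, which encodes PU.1, had a mean of 161 ± 26.1 and 157 ± 30.3 normalised counts (SD, n = 3 each), and Irf8 had a log2 fold change of 0.09. Mef2a and Cebpb, the most abundant per length, had -0.03 and 0.00539. Of 16 tested genes of the TREM2-TYROBP signalling list, 0 were called, and the median was -0.00919. Syk, the kinase recruited by TYROBP, had a log2 fold change of 0.14, and Prkcd had -0.43 (edgeR adjusted p = 0.325).

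The 17 tested genes of activated microglia had a median of -0.15, with 6 above 0 and 11 below, and 0 called. Fth1, a ferritin chain, and Ctsd, a lysosomal protease, had log2 fold changes of 0.00 and -0.12. Of 13 inflammatory genes (cytokines, with Nlrp3, Nos2, Ptgs2 and Nfkbia), 5 (Il1b, Tnf, Il6, Ccl2 and Ccl4, named after their values were seen) fell under the count filter. The other 8 had a median of -0.15 and 0 calls, and Il18 and Nfkbia had 0.19 and -0.04. The 12 tested genes of phagosomes and lysosomes had a median of -0.10 and 0 calls, with Lamp1 and Lgmn both at -0.10.

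**Figure D3:**
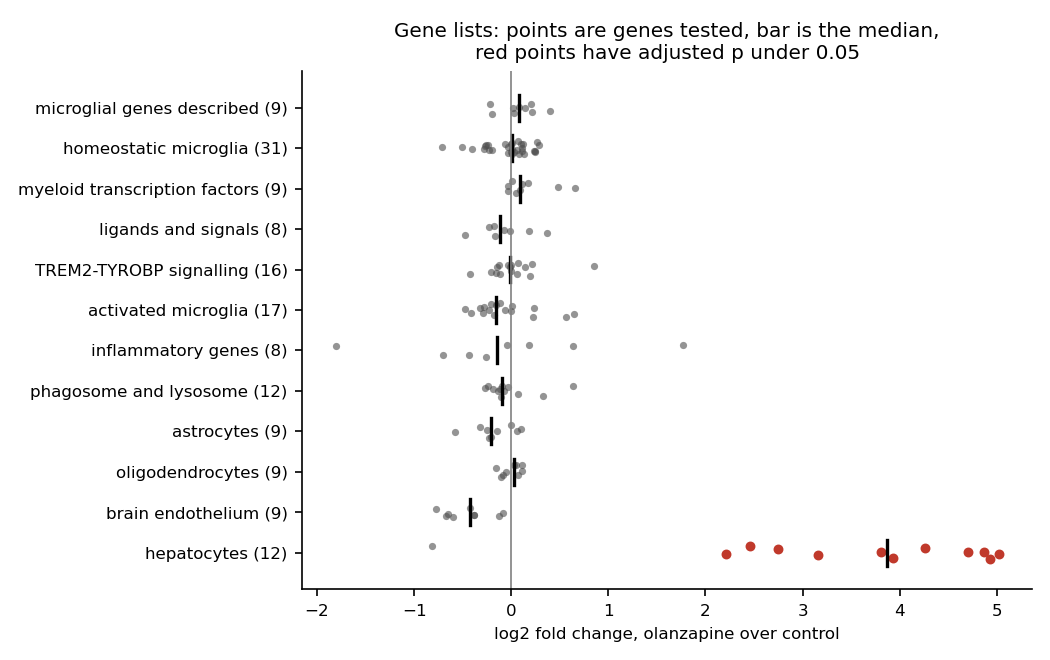
Log2 fold change, olanzapine over control, of the tested genes of each list (number tested in brackets); points are genes, black bars medians, and red points genes with an adjusted p under 0.05 in edgeR. The microglial lists have no red point, while 11 of 12 hepatocyte genes are red, against 2.32% of all tested genes called.

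Other brain cells were measured in the same libraries. The median log2 fold change was 0.03 for 9 oligodendrocyte genes, 0.03 for 9 neuronal genes and -0.20 for 9 astrocyte genes. It was -0.34 for 7 LS genes and -0.43 for 9 genes of brain endothelium, all 9 of the last below 0. In these lists 0 genes were called, against 2.32% of all tested genes. All 9 choroid plexus genes were below 0 with a median of -0.50, and their summed FPKM varied from 14.6 to 188 among the libraries. The 8 meningeal genes had a median of -0.24 and 0 calls. Of 7 RNAs retained in the nucleus, 5 were called higher with olanzapine, against 1.83% of all tested genes, and the median was 1.19. Malat1 had a mean of 3905 ± 403 normalised counts in controls and 9752 ± 1336 with olanzapine (SD, n = 3 each). The part of these differences between the libraries in the values of the 9 microglial genes was not tested.

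The olanzapine libraries also held RNA of liver genes, and the liver has a macrophage of its own, the Kupffer cell, which expresses several of the 9 genes. Alb, the gene of albumin, had 460, 507 and 268 counts in controls and 5049, 6632 and 5345 with olanzapine, and Apoa1, Serpina1a, Fgb and Fga were called higher as well. The 11 hepatocyte genes other than Ttr, which the choroid plexus also makes, had summed counts of 724, 867 and 483 against 8679, 11245 and 9016. Of the 8 Kupffer cell genes, Clec4f, Vsig4, Cd5l, Marco and Timd4 together had 0, 0 and 1 counts in the controls and 10, 16 and 15 counts with olanzapine. These 5 were picked out after their values were seen, and each fell under the count filter, so no test is given. Clec4f, a lectin of Kupffer cells, had 0, 0 and 1 counts against 3, 3 and 6. Folr2 and Slc40a1, the Kupffer cell genes that passed the filter, had log2 fold changes of -0.39 and -0.20. All 8 summed to 1.75 to 2.30 FPKM in controls and 1.62 to 2.21 with olanzapine, so this sum overlapped. Most of it was Slc40a1, with a mean of 1.66 FPKM over the libraries. The 9 microglial genes had between 8915 and 10482 counts per library. The part of Kupffer cell RNA in the values of the 9 genes was not tested.

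Genes of the brain's border macrophages, and of monocytes and neutrophils, were at low levels. The 9 genes of border macrophages summed to between 2.90 and 3.57 FPKM in controls and between 1.91 and 3.58 with olanzapine, with 0 called of 6 tested and a median of -0.39. Mrc1, the mannose receptor of these cells, had a mean of 55.6 ± 7.33 and 42.8 ± 17.8 normalised counts (SD, n = 3 each). The 10 genes of monocytes and neutrophils had 24 to 33 counts in all per library, and none passed the filter. Of the lymphocyte genes 2 passed the filter, with 0 called, and the 5 red cell genes, summing to between 88.0 and 118 FPKM per library, had a median log2 fold change of 0.11 and 0 calls. The summed FPKM of the 9 microglial genes was 99.2 to 107 in controls and 102 to 120 with olanzapine.

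**Figure D4:**
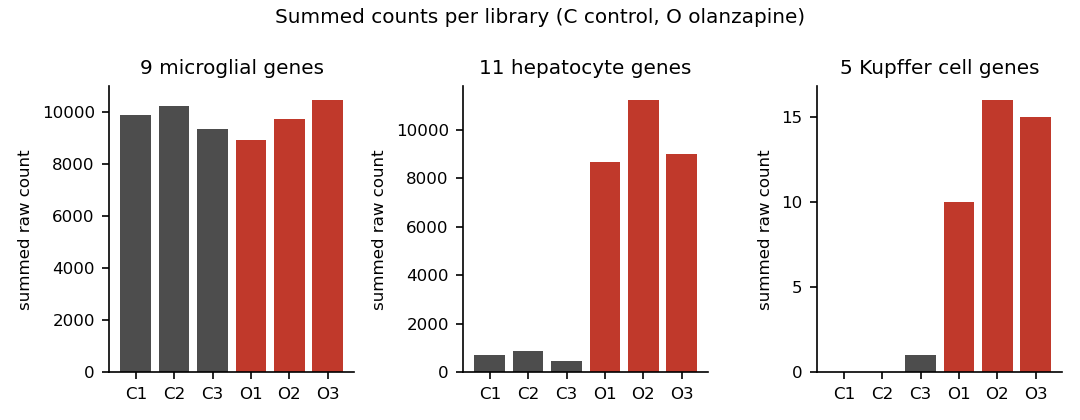
Raw counts (vertical axes) summed over the 9 microglial genes, 11 hepatocyte genes and 5 Kupffer cell genes. Control pools are C1 to C3 and olanzapine pools O1 to O3. The 5 Kupffer cell genes were picked, after their values were seen, from 8 listed. Folr2 and Slc40a1, not among the 5, had fitted changes below 0. The microglial sums stay between 8915 and 10482, and the hepatocyte sums are higher in the olanzapine pools. The sums of the 5 picked genes go from 0, 0 and 1 to 10, 16 and 15.

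Among the 9 genes, the shorter ones tended to have the higher fitted changes. The lengths that the authors used for FPKM were recovered from the files and were 575 bases for Tyrobp, 1028 for Aif1, 1146 for Trem2, 1247 for Cd68, 2268 for Tmem119, 2681 for P2ry12, 3753 for Cx3cr1, 3875 for Csf1r and 4682 for Itgam. Spearman's rho between length and log2 fold change was -0.82 over the 9 genes, all measured in the same 6 libraries. Over all 17255 tested genes it was -0.14, and with these genes split by length into 10 bins of like size the median log2 fold change went from 0.08 in the shortest bin to -0.07 in the longest. For the 31 genes of resting microglia rho was -0.18, and for all 101 further microglial genes it was 0.07. With a library offset for length in the fit, chosen after seeing the data, Aif1 had a log2 fold change of 0.34, Tmem119 0.18, Tyrobp 0.12, Trem2 0.08, Csf1r 0.03, Cd68 0.01, P2ry12 -0.00698, Cx3cr1 -0.20 and Itgam -0.20. The median of the 9 went from 0.08 to 0.03, and 0 of the 9 were called.

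**Figure D5:**
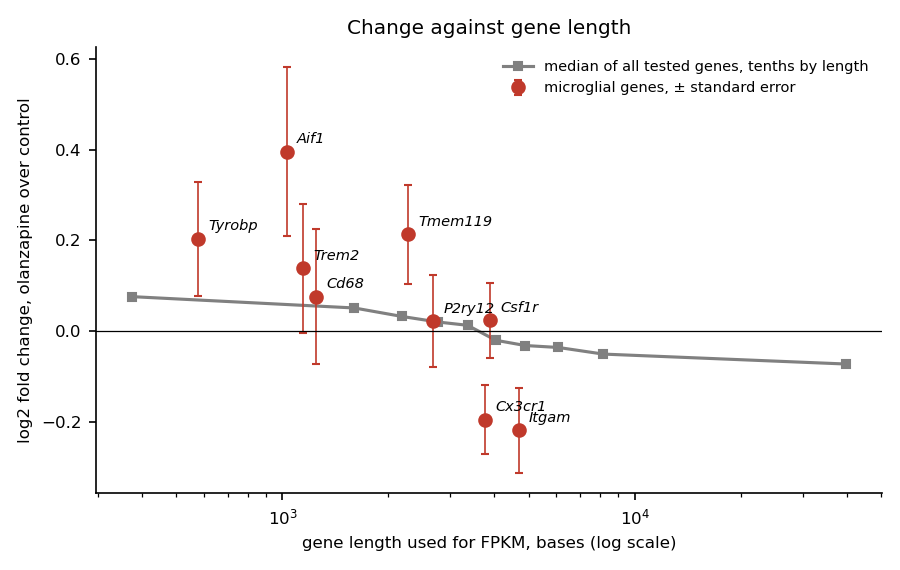
Log2 fold change, olanzapine over control, of the 9 microglial genes (red points with standard errors) against the gene length behind FPKM (log axis), with the median of all tested genes in 10 length bins (grey squares, at the middle of each bin's range on the log axis). Aif1 at 0.40 and Itgam at -0.22 lie farther from 0 than the grey line, which stays between 0.08 and -0.07.

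The genes whose pattern over the 6 libraries was most like the mean of the 9 were sought among 14270 other genes with a mean of at least 50 counts. Pearson's r with the mean of the standardised log2 CPM was highest for Xpo1 (0.98), Bclaf1 (0.97), Gabra2 (0.97), BC005537 (0.97) and Nanos1 (0.96), followed by Alkbh1, Mak16, Ephb1, Cyp2u1 and Tut4 at about 0.95. None of these 10 was on a microglial list, and 48 genes (0.336%) had r above 0.9. The mean of the 9 was highest in olanzapine pool 3 (0.938), with -0.536 to 0.148 in the other libraries. These r values are the highest of many over only 6 libraries. They were not tested and do not show that the genes vary together with microglia.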

How the data were processed

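Total RNA from pooled LS tissue (3 mice each) gave 3 olanzapine and 3 control libraries, grouped by their titles. The authors trimmed reads with fastp, aligned them with HISAT2 (mm10 per the labels) and deposited raw counts per gene from HTSeq-count. The FPKM deposited equal these counts divided by the summed counts and a gene length in 100% of values compared (tolerance 0.01%), so FPKM is no independent measurement. No column of sample values went unused.

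Counts were normalised with TMM and tested with edgeR 4.0.16 (R 4.3.3; quasi-likelihood F test, group as the only term, Benjamini-Hochberg adjustment) after filterByExpr (count 10, total 15). Normalised counts are scaled to the geometric mean of the effective library sizes. The standard error is the size of the log2 fold change divided by the square root of F, and intervals are 95%. Alternatives were DESeq2 1.42.0, limma 3.58.1 on log2(FPKM + 1) or log2(FPKM + 0.1), other normalisations and filters, a replicate block, a fold limit of 2, each library left out and, chosen after seeing the data, a length offset. The 9 genes and the lists were chosen with earlier results of these data known. Besides the 9, the text names from each list up to 5 called genes and the 2 with the highest mean FPKM, fixed partners (Csf1, Il34, Cx3cl1, Itgb2, Syk, Spi1, Irf8, Apoe, C1qa, Clec4f, Mrc1 and Alb) and the 10 genes of most similar pattern, with exceptions stated. A gene that this rule also names is not reported here. P-values measure only the spread between these pools, part of which may be technical. Gene positions and promoters came from RefSeq.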

Additional observations from a re-analysis of the deposited data

How the results depend on the processing

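In 16 alternatives 0 of the 9 microglial genes were called, and the lowest adjusted p over these fits was 0.165, for Aif1. Of 144 log2 fold changes, 6 changed sign, all in genes close to 0: P2ry12 with the length offset (-0.00698) and, over the fits with 1 library left out, P2ry12 (-0.0597 without olanzapine replicate 3 to 0.109), Csf1r (-0.0246 without olanzapine replicate 3 to 0.0779) and Cd68 (-0.0105 without control replicate 3 to 0.191). The signs of Cx3cr1, Itgam, Aif1, Tyrobp, Tmem119 and Trem2 held in all 16. With 1 library left out, Tyrobp went down to 0.0845 (without olanzapine replicate 3), Tmem119 to 0.141 (without control replicate 3) and Trem2 to 0.0572 (without control replicate 2), or up to 0.230 for Trem2 (without control replicate 1). The median of the 9 genes ranged from -0.00338 (without control replicate 3) to 0.159 over those fits, and from 0.0276 (length offset) to 0.102 over the other alternatives. Among the further microglial genes, DESeq2 called 2 (Csf2ra, higher, and Pros1, lower), the length offset 1 (Csf2ra), and the fits with 1 library left out between 0 and 1 (C1qa, without olanzapine replicate 1). The cause was not tested. Over all genes, 401 were called in edgeR, 1154 in DESeq2, 240 with limma on log2(FPKM + 1) without a filter, 174 with the fold limit of 2, and 131 (without control replicate 2) to 508 (without olanzapine replicate 1) with 1 library left out; each of the other 5 libraries left out gave 176 or fewer. With the replicate number as a block 140 were called, of which 137 were shared with the fit without it. Same-numbered libraries had correlations of -0.00262, 0.0616 and -0.255, and differently numbered ones ranged from -0.351 to 0.339. With 3 libraries per group these values cannot show whether the pools were paired, and the labels give only a number. The count filter left out 10 of the 111 further microglial genes, and without it 0 of the 111 were called.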
